A study of Homo sapiens with 6 samples.

Results

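The genes described here encode the ephrins, semaphorins, Slits and netrins, which are guidance ligands, and their Eph, plexin, neuropilin, Robo, UNC5 and DCC receptors. Members were taken by gene symbol, from a pattern that lists these families, and the table held 69 of them among 27685 genes. By role, 35 were ligands and 34 were receptors. The choice used names only and no measured value.

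Caco-2 is an established human colorectal tumour line whose cells take on features of absorptive intestinal cells. The study sequenced polyA RNA of 2 groups of these cells, with 3 libraries in each. Vector control cells were mock-transfected with pcDNA3, and their genotype is labelled WT. The other cells were derivatives of these that carry hFABP1as, a construct antisense to the fatty acid carrier gene FABP1, and their genotype is labelled FABP1_knockdown. Both groups grew in the same serum-containing medium, with no other treatment named. Whether a group is 1 clone or several is not labelled, so line and construct cannot be told apart. Separate cultures are not named for the replicates either. The p-values below therefore reflect spread among these libraries alone, and that spread may be technical.

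Ephrins and Eph receptors signal at contact between neighbouring cells. Ephrin-A ligands are held to the membrane by a lipid anchor and ephrin-B ligands span it, so the ligand-bearing cell can receive a signal as well. In the intestinal epithelium, EphB receptors on crypt cells and ephrin-B ligands on more differentiated cells keep these cells sorted along the crypt axis. Class 3 semaphorins are secreted and bind neuropilins, which pair with plexins as the signalling chain, while membrane-bound semaphorins mostly bind plexins directly. Netrins act through DCC and UNC5 receptors and Slits through Robo receptors, and all these cues were first known from axon growth.

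Total counts per library ranged from 40351394 to 57979037. Reads counted to FABP1 were not lower in the group labelled as its knockdown. Whether counting used the strand is not stated in the labels, so these counts may include RNA of the antisense construct and cannot show the level of FABP1's own RNA. It stood at 138, 102 and 121 CPM (read counts scaled to an effective library of 1000000 reads) in the vector control and at 134, 147 and 122 CPM in the other group (log2 fold change 0.16, edgeR adjusted p = 0.268). Libraries carry the numbers of the column headers and are given in the order 2, 3 and 4. The second group is named by its label, as the antisense-labelled libraries, and "rose" and "fell" refer to it relative to the vector control. Adjusted p-values are Benjamini-Hochberg values from edgeR (quasi-likelihood) over all 14640 genes tested, and a gene passed at an adjusted p under 0.05. All 11 colon epithelial markers were tested, and 7 rose and 2 fell (81.8% called, against 55.0% of all genes tested). Their summed level was 14275 to 17571 CPM in the vector control and 16093 to 18983 CPM in the other group. KRT8, at 8666 and 9447 CPM on average, weighed most in that sum and did not pass. GPA33 (log2 fold change 7.87), LGALS4 (4.77), KRT20 (3.17), CDH17 (1.32) and CDX2 (1.09) rose more than KRT18 (0.27) and CDH1 (0.20). GPA33 went from 0.0524 ± 0.0631 to 12.3 ± 2.40 CPM (SD, n = 3). The filter on low counts asked for 3 libraries at or above 0.227 CPM, and GPA33 reached it through the antisense-labelled libraries alone. It therefore had to differ, and the share called leans on that. KRT19 (-0.51) and VIL1 (-0.20) fell. The endothelial markers CDH5, TEK and KDR, the neuronal marker RBFOX3, the fibroblast markers COL1A2 and DCN and the leukocyte marker PTPRC had 0 counts in all libraries. Others of these lists were present and changed. The fibroblast marker LUM rose from 0.133 ± 0.0873 to 18.1 ± 1.87 CPM (SD, n = 3; log2 fold change 7.12) and PDGFRA fell from 22.7 ± 3.49 to 0.386 ± 0.285 CPM (-5.78). Among leukocyte markers CD14 fell (-2.38) and LYZ (1.04), CD68 (0.69) and CSF1R, from 0.264 ± 0.295 to 3.23 ± 0.475 CPM (SD, n = 3), rose. The 3 endothelial markers tested rose, PECAM1 by 1.01, ESAM by 0.64 and VWF by 2.85. VWF went from 0.0463 ± 0.0802 to 0.402 ± 0.185 CPM (SD, n = 3). Like GPA33, it lay below the filter in every control library, so it had to differ. LUM and CSF1R would not have reached the filter on the vector control libraries alone, nor PDGFRA on the antisense-labelled libraries alone. In all, 6 of 9 endothelial, 7 of 10 neuronal and glial, 3 of 9 fibroblast and 2 of 8 leukocyte markers were at 0. The 9 endothelial markers together stood at 3.33 to 4.64 CPM in the vector control and 6.29 to 7.80 CPM in the other group, the 10 neuronal and glial markers at 3.10 to 4.75 and 2.17 to 3.23 CPM, the 9 fibroblast markers at 39.4 to 42.3 and 31.5 to 35.7 CPM, and the 8 leukocyte markers at 44.0 to 48.0 and 63.3 to 66.8 CPM. These sums hide members that moved in opposite directions, and their part in the results was not tested. In RNA of a whole culture, fewer cells that express a gene and less RNA per cell cannot be told apart.

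Guidance genes changed in both directions, and the receptors that changed at higher levels were mostly lower. Of the 69 genes, 47 passed the filter on low counts, of which 15 rose, 18 fell and 14 did not pass. That is 70.2% called, against 55.0% of all genes tested (27.7% higher and 27.3% lower). Of the 47, 10 rose and 10 fell by 2-fold or more, where the shares over all genes tested were 8.80% and 6.12%. The groups did not overlap in 37 of the 47, against 62.7% of all genes tested. The median log2 fold change was -0.14 for the 47 genes and 0.01 for all genes tested. EPHB1, EPHB6 and PLXNA2 reached the filter through the antisense-labelled libraries alone, and NTN3 through the vector control alone, so these genes had to differ and the counts above lean on that. Among the genes that rose, SLIT3, SEMA3G, EPHA6 and EPHB3 would not have reached it on the vector control libraries alone either. The filter asked for 3 libraries at or above 0.227 CPM of the total counts, and at least 1 control library of each lay below that. Their calls lean on the filter too.

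Among the ligands 8 of 25 tested rose and 8 fell, with a median log2 fold change of -0.02. Among the receptors 7 of 22 rose and 10 fell, with a median of -0.19. At a mean log2 CPM of at least 1, the level above which genes are described in full, 6 ligands rose, 7 fell and 5 did not pass. For receptors at that level, 3 rose, 10 fell and 3 did not pass, where 28.0% of all genes at that level rose and 30.1% fell. Below it, 6 guidance genes rose and NTN3 fell, all of them under 2 CPM in every library. None of those that rose would have reached the filter on the vector control libraries alone, nor NTN3 on the antisense-labelled libraries alone.

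**Figure D1:**
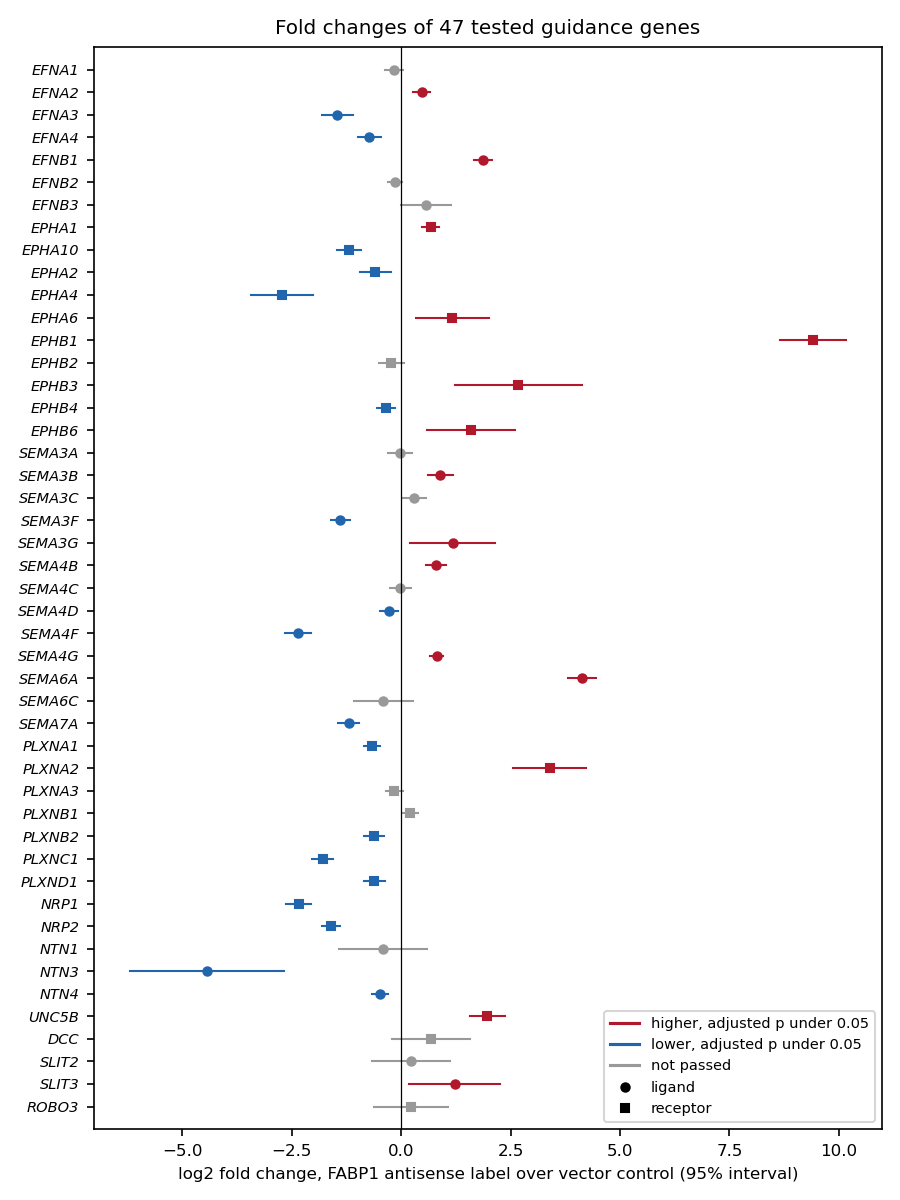
Log2 fold change of each tested guidance gene (x axis, antisense-labelled libraries over vector control) with its 95% interval, grouped by family on the y axis. Circles are ligands, squares receptors, red passed upward, blue passed downward and grey did not pass. EPHB1 (9.42), SEMA6A (4.13) and PLXNA2 (3.39) lie farthest to the right, and NTN3 (-4.44), EPHA4 (-2.73), SEMA4F (-2.35) and NRP1 (-2.34) farthest to the left.

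Of the 3 ephrin-B genes, EFNB1 rose and the other two did not pass. EFNB1, a transmembrane ephrin of intestinal epithelium encoded on the X chromosome, stood at 12.3, 11.0 and 11.2 CPM in the vector control libraries and 42.8, 44.9 and 39.0 CPM in the antisense-labelled libraries. All 3 of the latter lay above all 3 of the former, and the log2 fold change was 1.87 (SE 0.09, edgeR adjusted p = 5.44e-07), or 3.67-fold. EFNB2, the main ligand of EphB4, had the higher level, at 85.8, 97.4 and 87.1 CPM against 80.7, 80.9 and 83.2 CPM. Its groups did not overlap, but it did not pass the test (-0.14, 95% interval -0.31 to 0.02, edgeR adjusted p = 0.126). EFNB3, at 1.34, 0.882 and 1.49 CPM and 2.16, 1.61 and 1.76 CPM, did not pass either (0.57, 95% interval -0.01 to 1.15).

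The ephrin-A genes split. EFNA2 rose from 28.1, 29.2 and 32.8 CPM to 39.2, 44.7 and 40.6 CPM (log2 fold change 0.47, SE 0.09, edgeR adjusted p = 0.00215). EFNA3 went the other way, from 5.38, 4.48 and 5.64 CPM to 1.94, 1.79 and 1.92 CPM (-1.46, SE 0.15, edgeR adjusted p = 6.83e-05). EFNA4 also fell, from 18.4, 16.6 and 19.8 CPM to 12.9, 9.77 and 10.6 CPM (-0.73, SE 0.12, edgeR adjusted p = 0.000943). In these 3 genes no library of one group reached into the other. EFNA1, a ligand of EphA2, was at 25.4, 22.0 and 25.5 CPM and 21.5, 23.3 and 20.2 CPM, and its groups overlapped (-0.17, 95% interval -0.38 to 0.04, edgeR adjusted p = 0.16). EFNA5 had 0 counts in all 6 libraries.

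**Figure D2:**
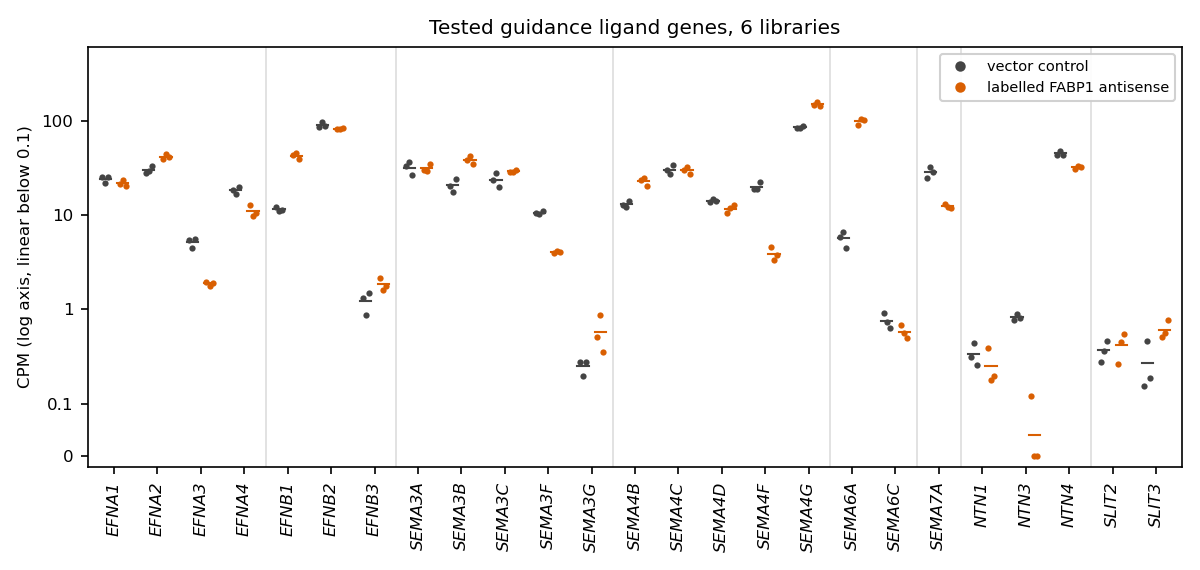
Level of each tested ligand gene in each library (y axis, CPM on a log axis that is linear below 0.1), with dots for libraries and bars for the mean of 3. Dark dots are vector control and orange dots the antisense-labelled libraries. EFNB1 and SEMA6A sit apart with the orange dots on top, and EFNA3, SEMA3F, SEMA4F and SEMA7A with the dark dots on top.

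EPHB1, an EphB receptor that binds ephrin-B ligands, rose from near 0 counts. Control libraries held 4, 0 and 0 reads of it, and antisense-labelled libraries held 803, 992 and 1206, or 19.5, 22.2 and 21.4 CPM there. The log2 fold change was 9.42 (SE 0.33, edgeR adjusted p = 9.13e-08). The ratio of summed counts, scaled by library size, was 746 with an exact 95% interval of 291 to 2739.5 that covers counting error only. All 4 control counts came from library 2, and without that library EPHB1 was at least 589-fold higher, against 3 counts over the 2 remaining control libraries.

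EPHB3 and EPHB6 rose as well, at low levels. EPHB3, a crypt receptor known as a target of Wnt signalling, had 0.452, 0 and 0.326 CPM in the vector control and 1.72, 1.65 and 1.87 CPM in the other group (log2 fold change 2.68, SE 0.64, edgeR adjusted p = 0.00661). Control library 3 had 0 counts of it, and without that library the value was 2.15. Leaving out control library 2 instead gave 3.38. EPHB6, whose kinase domain is inactive, went from 0.156, 0.171 and 0.140 CPM to 0.656, 0.514 and 0.284 CPM (1.60, edgeR adjusted p = 0.0137), a call lost without antisense library 2 (edgeR adjusted p = 0.0625). Of the EphB receptors with the highest levels, EPHB4 fell from 205, 202 and 235 CPM to 171, 181 and 152 CPM (-0.35, SE 0.09, edgeR adjusted p = 0.0103). Its locus overlaps SLC12A9, which also fell (-0.67), and reads of overlapping genes could not be told apart because use of the strand in counting is not given. EPHB2, the other EphB receptor of crypt cells, was at 73.1, 92.6 and 105 CPM and 81.2, 76.4 and 74.2 CPM with overlapping groups (-0.22, 95% interval -0.50 to 0.05, edgeR adjusted p = 0.152). It passed downward without control library 2 (-0.36, edgeR adjusted p = 0.0146).

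EphA receptors moved in opposite directions. EPHA2, a receptor of ephrin-A1 common in epithelial tumours, fell from 195, 135 and 219 CPM to 124, 126 and 115 CPM (log2 fold change -0.59, SE 0.15, edgeR adjusted p = 0.011). Control library 3 was the lowest of its group, close to but above the highest antisense-labelled library. EPHA1 rose from 52.2, 52.0 and 59.3 CPM to 89.9, 90.0 and 80.6 CPM (0.67, SE 0.08, edgeR adjusted p = 0.000176). EPHA4, which binds ephrins of both classes, fell from 4.24, 4.16 and 4.94 CPM to 0.437, 1.07 and 0.498 CPM (-2.73, SE 0.31, edgeR adjusted p = 0.000115), or 6.65-fold. EPHA10, which like EPHB6 has an inactive kinase domain, fell from 16.5, 15.2 and 16.0 CPM to 7.29, 7.96 and 5.78 CPM (-1.19, SE 0.12, edgeR adjusted p = 6.52e-05). All 4 genes had groups that did not overlap. EPHA6 passed upward from a low level (1.17, edgeR adjusted p = 0.0245), from 0.299 ± 0.107 CPM to 0.684 ± 0.149 CPM (SD, n = 3). That call was lost in 4 of the 6 fits that left out 1 library, those without antisense library 2 or 4 or control library 3 or 4 (edgeR adjusted p up to 0.105). EPHA3 and EPHA7 had 0 counts in all libraries.

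The start regions of EPHB1, EFNB1, EPHA4 and the semaphorin gene SEMA4F are printed here to show what stretch of DNA lies at the start of genes that rose (EPHB1 and its ligand EFNB1) and of genes that fell (EPHA4 and SEMA4F). Each is RefSeq sequence of build GRCh38.p14, from 250 bases before to 50 bases after the start of the gene, 5′ to 3′ on the strand of the gene. EPHB1 lies at chr3:134795010-134795309 (plus strand), EFNB1 at chrX:68828771-68829070 (plus strand), EPHA4 at chr2:221574153-221574452 (minus strand) and SEMA4F at chr2:74653997-74654296 (plus strand). Capitals mark matches, on either strand, to GGGCGG (GC box), CTTTGA (core of TCF/LEF sites), TTTATG (core of CDX sites) and CAGGTG (E-box bound by Snail and ZEB factors).
EPHB1: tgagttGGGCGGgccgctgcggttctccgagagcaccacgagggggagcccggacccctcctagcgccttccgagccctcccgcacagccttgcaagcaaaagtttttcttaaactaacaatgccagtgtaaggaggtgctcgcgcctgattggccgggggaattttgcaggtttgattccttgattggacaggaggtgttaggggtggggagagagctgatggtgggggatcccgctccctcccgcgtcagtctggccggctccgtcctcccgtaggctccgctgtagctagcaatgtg
EFNB1: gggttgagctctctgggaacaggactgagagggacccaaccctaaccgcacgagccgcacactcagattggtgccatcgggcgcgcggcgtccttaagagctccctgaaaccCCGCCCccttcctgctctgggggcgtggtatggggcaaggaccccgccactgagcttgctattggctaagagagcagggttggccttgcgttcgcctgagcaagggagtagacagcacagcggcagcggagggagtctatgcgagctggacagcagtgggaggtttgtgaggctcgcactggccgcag
EPHA4: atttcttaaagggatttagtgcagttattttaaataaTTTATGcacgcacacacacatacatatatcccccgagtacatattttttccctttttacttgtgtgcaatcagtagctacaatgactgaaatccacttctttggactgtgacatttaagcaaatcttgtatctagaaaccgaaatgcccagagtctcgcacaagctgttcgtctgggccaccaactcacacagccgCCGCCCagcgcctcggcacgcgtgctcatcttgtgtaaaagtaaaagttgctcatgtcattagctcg
SEMA4F: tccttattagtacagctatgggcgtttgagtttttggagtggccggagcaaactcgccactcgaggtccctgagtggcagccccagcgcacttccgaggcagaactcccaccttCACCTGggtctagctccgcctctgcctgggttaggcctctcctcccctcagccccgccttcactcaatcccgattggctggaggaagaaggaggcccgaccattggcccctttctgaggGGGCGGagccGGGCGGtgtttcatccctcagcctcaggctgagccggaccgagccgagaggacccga
The EPHB1 and EFNB1 stretches each hold 1 GC box and none of the other motifs. The EPHA4 stretch holds 1 GC box and 1 CDX core, and the SEMA4F stretch 2 GC boxes and 1 E-box. EPHA4 has a GC content of 43.0%, against 61.3% for EPHB1, 63.7% for EFNB1 and 63.0% for SEMA4F.

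Such stretches were found for 59 of the 69 genes. SEMA6A, NRP1, UNC5B, NTN3 and EPHA10 were among those without one. A GC box was present in 45 of these 59 (76.3%), against 44.6% of 27305 promoters of the same length. The 27305 include promoters of genes too low to be tested here, and no share over tested genes alone was taken. It was present in 12 of 13 promoters of genes that rose, 14 of 15 of genes that fell, 9 of 11 of genes that did not pass and 10 of 20 of genes not tested. The CDX core was in 1 of 59 (1.69%, against 11.0% of all promoters), the TCF/LEF core in 5 (8.47%, against 13.1%) and the E-box in 10 (16.9%, against 20.6%). The ratio of observed to expected CpG had a median of 0.716 in the 59 and 0.580 in all promoters. It was 0.703 for genes that rose and 0.784 for genes that fell. These are matches of letters, given as a description with no test.

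**Figure D3:**
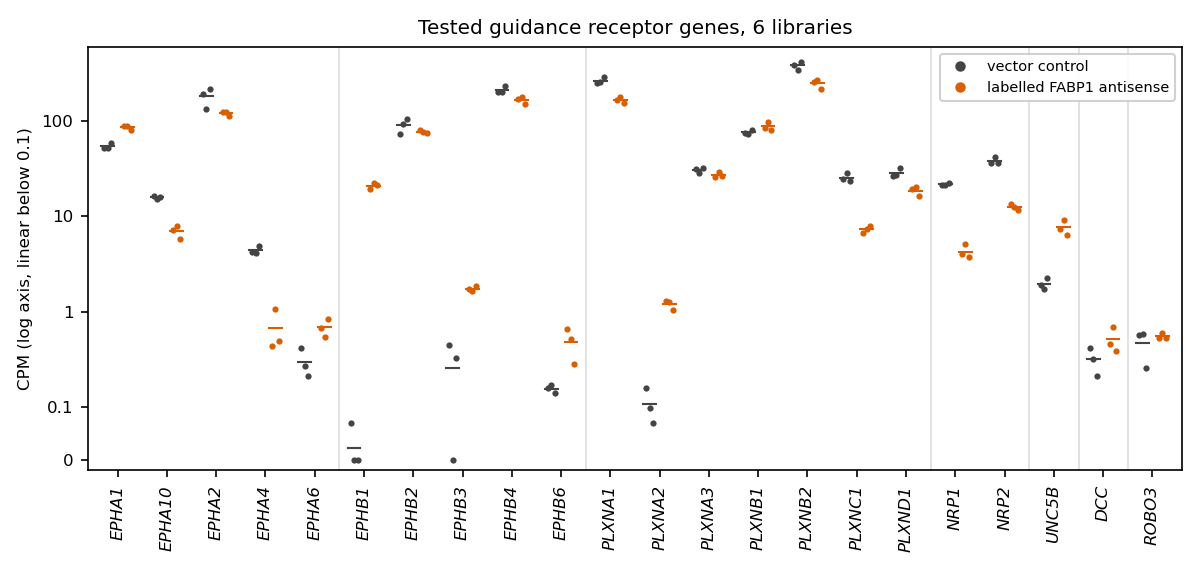
Level of each tested receptor gene in each library (y axis, CPM on a log axis that is linear below 0.1), with dots for libraries and bars for the mean of 3. Dark dots are vector control and orange dots the antisense-labelled libraries. EPHB1, EPHB3 and PLXNA2 rise from near 0, while NRP1, NRP2, PLXNC1 and EPHA4 show the dark dots on top.

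Of 13 tested semaphorin genes, 5 rose and 4 fell. SEMA6A, a transmembrane semaphorin that binds plexins A2 and A4, had the largest rise among ligands. It was at 5.78, 6.64 and 4.50 CPM in the vector control and 89.8, 104 and 102 CPM in the antisense-labelled libraries, with no overlap. The log2 fold change was 4.13 (SE 0.14, edgeR adjusted p = 8.20e-08), or 17.5-fold. Its locus overlaps the antisense genes SEMA6A-AS1 and SEMA6A-AS2, which stood at 0.238 and 0.0233 CPM on average in the vector control and 0.353 and 0.328 CPM in the other group. SEMA6A-AS2 rose (3.77, edgeR adjusted p = 0.00529) and SEMA6A-AS1 did not pass. SEMA4G, a transmembrane semaphorin, rose from 82.6, 83.1 and 88.2 CPM to 145, 157 and 144 CPM (0.81, SE 0.07, edgeR adjusted p = 1.95e-05). It overlaps MRPL43, which did not pass (0.17). SEMA4B, of the same class, rose from 12.6, 12.3 and 14.2 CPM to 23.2, 24.7 and 20.4 CPM (0.80, SE 0.10, edgeR adjusted p = 0.000195).

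The secreted class 3 semaphorins split. SEMA3B rose from 20.5, 17.6 and 23.8 CPM to 38.1, 42.4 and 34.5 CPM (log2 fold change 0.89, SE 0.12, edgeR adjusted p = 0.00035). SEMA3F, a ligand of neuropilin-2, fell from 10.4, 10.3 and 10.9 CPM to 3.93, 4.14 and 4.02 CPM (-1.39, SE 0.10, edgeR adjusted p = 6.00e-06). Both genes lie on chromosome 3, and the neighbours of each in gene order had median log2 fold changes of 0.08 and 0.09. SEMA3A, a ligand of neuropilin-1, was at 32.7, 36.0 and 26.6 CPM and 29.7, 29.0 and 35.0 CPM and did not pass (-0.02, 95% interval -0.30 to 0.26, edgeR adjusted p = 0.881). SEMA3C did not pass although its groups did not overlap (0.30, 95% interval 0.03 to 0.56, edgeR adjusted p = 0.0561). SEMA3G passed upward (1.18, edgeR adjusted p = 0.0434) from 0.251 ± 0.0478 CPM to 0.579 ± 0.265 CPM (SD, n = 3). This call held in only 1 of the 6 fits that left out 1 library, the one without antisense library 4, and without antisense library 3 the value was 0.76 (edgeR adjusted p = 0.191).

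Other semaphorins fell. SEMA4F, a transmembrane semaphorin, dropped from 18.7, 18.8 and 22.2 CPM to 4.57, 3.38 and 3.73 CPM (log2 fold change -2.35, SE 0.13, edgeR adjusted p = 1.48e-06), or 5.11-fold. SEMA7A, the lipid-anchored semaphorin that binds plexin C1 and integrins, fell from 24.9, 32.1 and 28.4 CPM to 13.1, 12.2 and 11.9 CPM (-1.20, SE 0.11, edgeR adjusted p = 2.52e-05). In both genes the groups lay well apart. SEMA4D, the ligand of plexin B1, fell from 13.8, 14.7 and 14.2 CPM to 10.5, 12.0 and 12.6 CPM (-0.28, SE 0.09, edgeR adjusted p = 0.031). Its call was lost in 5 of the 6 fits that left out 1 library, all but the one without antisense library 4 (edgeR adjusted p up to 0.125), and it overlaps SECISBP2, which rose (0.20). SEMA4C, a ligand of plexin B2, was at 29.9, 27.0 and 33.9 CPM and 29.9, 32.3 and 27.4 CPM and did not pass (-0.02, 95% interval -0.26 to 0.21, edgeR adjusted p = 0.878). SEMA6C, under 1 CPM, did not pass (-0.41, 95% interval -1.08 to 0.26).

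Both neuropilins, the binding receptors of class 3 semaphorins, fell. NRP1, which also binds VEGF, was at 21.1, 21.6 and 22.4 CPM in the vector control and 4.01, 5.10 and 3.73 CPM in the other group (log2 fold change -2.34, SE 0.12, edgeR adjusted p = 9.59e-07), or 5.07-fold lower. NRP2 was at 36.5, 41.6 and 36.5 CPM and 13.5, 12.5 and 11.6 CPM (-1.61, SE 0.09, edgeR adjusted p = 1.84e-06), or 3.04-fold lower. No library of one group came near the other in either gene.

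Plexins, the signalling receptors of semaphorins, fell in 4 of 7 tested genes. PLXNB2, with the highest level of all guidance genes in CPM, fell from 386, 346 and 419 CPM to 259, 269.6 and 218 CPM (log2 fold change -0.63, SE 0.10, edgeR adjusted p = 0.00083). PLXNA1, a partner of neuropilins, fell from 253, 255 and 288 CPM to 165, 179.9 and 156 CPM (-0.67, SE 0.08, edgeR adjusted p = 0.000183). PLXND1 fell from 26.8, 27.0 and 31.9 CPM to 19.4, 20.2 and 16.5 CPM (-0.61, SE 0.11, edgeR adjusted p = 0.00141). PLXNC1, the receptor of semaphorin 7A, fell from 24.6, 28.2 and 23.8 CPM to 6.73, 7.31 and 7.98 CPM (-1.80, SE 0.10, edgeR adjusted p = 1.65e-06). It overlaps CEP83, which rose (0.46). None of these 4 genes had overlapping groups.

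PLXNA2, a receptor of semaphorin 6A, was the plexin that rose, at 0.156, 0.0980 and 0.0699 CPM and 1.29, 1.27 and 1.03 CPM (log2 fold change 3.39, SE 0.37, edgeR adjusted p = 8.83e-05). It had 16 counts over the vector control group and 168 over the other, a scaled ratio of 10.4 (exact 95% interval 6.24 to 18.7, counting error only). PLXNB1 was at 75.1, 73.6 and 80.2 CPM and 84.8, 97.2 and 81.7 CPM. Its groups did not overlap, and it missed the threshold (0.20, 95% interval 0.01 to 0.39, edgeR adjusted p = 0.0663), but passed in DESeq2 (adjusted p = 0.0475), with the stricter filter (edgeR adjusted p = 0.0492) and without antisense library 4 (edgeR adjusted p = 0.0438). PLXNA3 did not pass, at 31.2, 28.3 and 32.2 CPM and 26.1, 29.5 and 26.9 CPM (-0.15, 95% interval -0.35 to 0.04, edgeR adjusted p = 0.162).

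Of the netrin genes 3 of 4 were tested, and of the Slit genes 2 of 3. NTN4, a netrin of basement membranes, fell from 43.2, 48.0 and 43.5 CPM to 30.6, 33.4 and 32.4 CPM (log2 fold change -0.48, SE 0.08, edgeR adjusted p = 0.000835), with no overlap. NTN3 had 45, 37 and 35 counts in the vector control and 5, 0 and 0 in the other group (-4.44, SE 0.78, edgeR adjusted p = 0.00132). Its scaled ratio of summed counts was 23.5-fold lower (exact 95% interval 9.80 to 73.8), and without antisense library 2, which held all 5 counts, it was at least 27.9-fold lower against 3 counts over the 2 remaining libraries. UNC5B, a netrin receptor that can trigger cell death without ligand, rose from 1.89, 1.74 and 2.24 CPM to 7.46, 9.17 and 6.40 CPM (1.97, SE 0.17, edgeR adjusted p = 2.51e-05). NTN1 (-0.42, 95% interval -1.43 to 0.60) and its receptor DCC (0.68, 95% interval -0.22 to 1.58), a gene often lost in colorectal cancer, did not pass, and both stayed at or under 0.693 CPM in every library. Among Slits and Robos, SLIT3 passed upward from 0.269 ± 0.170 CPM to 0.611 ± 0.135 CPM (SD, n = 3; 1.22, edgeR adjusted p = 0.048). That call was lost in 5 of the 6 fits that left out 1 library, and held without control library 3, where the value was 1.83. SLIT2 (0.22, 95% interval -0.68 to 1.11) and ROBO3 (0.23, 95% interval -0.61 to 1.07) did not pass.

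Of the 22 genes below the filter, 10 were ligands and 12 receptors, and none exceeded 0.745 CPM in any library. The 10 with 0 counts everywhere were EFNA5, SEMA3D, SEMA3E, SEMA6D, EPHA3, EPHA7, ROBO2, ROBO4, UNC5C and UNC5D, where a count of 0 allows up to 0.0212 CPM (3 counts over the vector control group). The others were SEMA4A, SEMA5A, SEMA5B, SEMA6B, SLIT1, NTN5, EPHA5, EPHA8, PLXNA4, PLXNB3, ROBO1 and UNC5A. The 12 with reads were tested only in a fit with no filter on low counts, where 1 rose, 2 fell and 9 did not pass. SEMA5A, with 0 counts in the vector control and 18 in the other group, rose (edgeR adjusted p = 0.0200). SEMA6B, with 60 and 10 counts, fell (log2 fold change -2.65, edgeR adjusted p = 0.0415), as did EPHA8, with 44 and 11 counts (-1.99, edgeR adjusted p = 0.0286).

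Ligands and receptors were also set side by side by level per transcript length, in CPM per kilobase, since longer transcripts collect more reads. The summed level of all ligands was 175, 179 and 187 CPM per kilobase in the vector control, against 216, 230 and 214 in the other group. For all receptors it was 264, 249 and 299 against 211, 219 and 191 CPM per kilobase. The ligand sum was thus higher in every antisense-labelled library and the receptor sum lower, a description with no test. A few genes set these sums. The mean level of SEMA4G was 18.8 CPM per kilobase higher in the antisense-labelled libraries, that of SEMA6A 16.7 and that of EFNA2 12.1. Among receptors PLXNB2 changed by -21.3, EPHA2 by -15.4 and PLXNA1 by -10.9 CPM per kilobase, while EPHA1 gained 9.62.

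The make-up of the families differed between the groups. SEMA6A made up 1.31 ± 0.274% of the summed semaphorin level per kilobase in the vector control and 15.8 ± 1.02% in the other group (SD, n = 3), while SEMA7A went from 14.4 ± 1.70% to 4.38 ± 0.337%. EFNB1 was 14.5 ± 1.39% and then 40.3 ± 2.09% of the ephrin-B level, the rest being nearly all EFNB2. EFNA2 was 48.2 ± 2.09% and 64.5 ± 2.51% of the ephrin-A level. EPHB1 reached 6.96 ± 0.650% of the EphB level, in which EPHB4 remained the largest part at 59.8 ± 1.72%. The neuropilin sum per kilobase was 0.298 of that in the vector control and the plexin sum 0.680 of it.

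**Figure D4:**
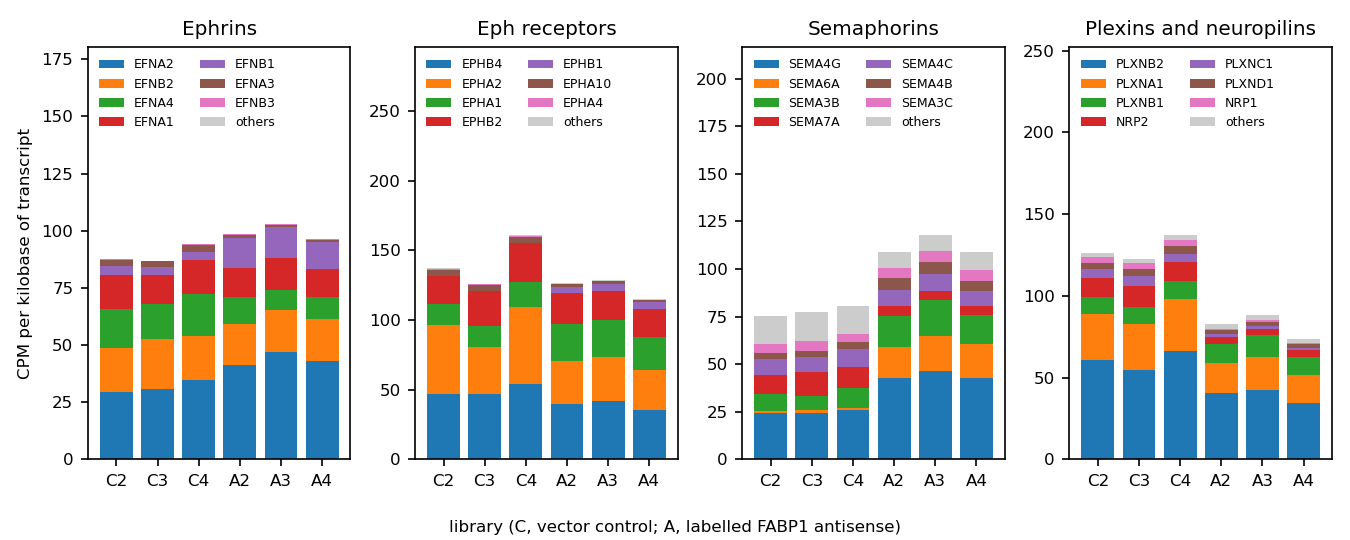
Summed level of 4 family groups in each library (y axis, CPM per kilobase of transcript), stacked by gene, for vector control libraries 2 to 4 (C) and antisense-labelled libraries 2 to 4 (A). The semaphorin bars are taller in the A libraries, with SEMA6A appearing as a visible block, and the plexin and neuropilin bars are shorter.

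Ligands and receptors known from textbooks to bind each other were compared for 14 pairs, chosen with the values known. In 3 pairs both partners rose (EFNB1 with EPHB1, EFNB1 with EPHB3, SEMA6A with PLXNA2). The receptors of these 3 pairs would not have reached the filter on low counts with the vector control libraries alone. Their part of the match therefore leans on the filter. In 2 pairs both fell (SEMA3F with NRP2, SEMA7A with PLXNC1). In 8 pairs 1 partner passed, and in 1 pair, NTN1 with DCC, neither did. No listed pair moved in opposite directions, but the list is not complete. By the binding described above, EFNB1 (1.87) and EFNA2 (0.47) did so with EPHA4 (-2.73). SEMA3B (0.89) did so with NRP1 (-2.34) and NRP2 (-1.61), and NTN4 (-0.48) with UNC5B (1.97). In contrast, EFNA3 (-1.46) and EFNA4 (-0.73) fell along with EPHA4, and SEMA3F (-1.39) along with NRP1. These are examples, and further such pairs were not counted. Those pairs were not among the 14, so the list does not show how often partners move together. For SEMA6A and PLXNA2 the log2 fold changes were 4.13 and 3.39, and for SEMA7A and PLXNC1 they were -1.20 and -1.80. SEMA3A, EFNB2 and SEMA4C did not pass while their receptors NRP1, EPHB4 and PLXNB2 fell. Pairs share partners, and RNA levels say nothing of binding.

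Each guidance gene was also set beside its neighbours on the chromosome. The median log2 fold change of up to 50 tested genes on either side ranged from -0.50 to 0.67. EPHA2, on chromosome 1, had neighbours with a median of -0.50 and itself stood at -0.59, a difference of -0.09. EPHB2, also on chromosome 1, had neighbours at -0.44 and stood at -0.22, and EPHA10 had neighbours at -0.46 and stood at -1.19. EFNA4, EFNA3 and EFNA1 follow each other directly in the order of tested genes on chromosome 1. Their neighbours had medians of -0.27, -0.27 and -0.28, and the genes themselves stood at -0.73, -1.46 and -0.17. PLXNB2 on chromosome 22 had neighbours at -0.31. In the other direction PLXNC1 and NTN4 lie on chromosome 12 among genes with medians of 0.67 and 0.60, and both fell. SEMA6A had neighbours at 0.42, well below its own 4.13. Of the 33 genes that passed, 28 differed from their neighbours' median by more than 0.5, and 21 had the same sign as that median. Neither share was taken over all genes that passed, so these counts are not particular to guidance genes. The part of position in these changes was not tested.

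**Figure D5:**
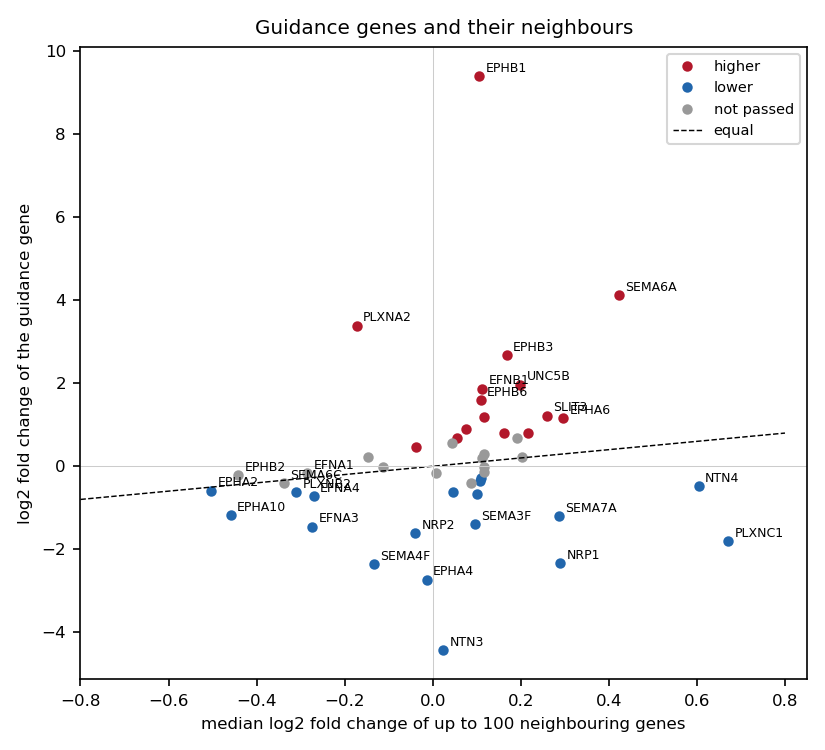
Log2 fold change of each tested guidance gene (y axis) against the median log2 fold change of up to 100 neighbouring tested genes in RefSeq order (x axis). The dashed line marks equal values. EPHA2 lies near the line at the left, while PLXNC1 and NTN4 lie below it at the far right.

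Further genes of guidance signalling moved in both directions too. Of 33 co-receptors and further cues, 18 were tested, 8 rose and 7 fell, with a median of 0.01. That is 83.3% called, where 55.0% of all genes tested were called (27.7% higher and 27.3% lower). The largest changes at a mean log2 CPM of at least 1 were rises of MST1R, a receptor tyrosine kinase that pairs with plexin B1 (1.38, SE 0.10), and of LRIG3 (1.28, SE 0.10), and falls of the adhesion molecule NRCAM (-1.27, SE 0.09) and the Wnt co-receptor PTK7 (-1.13, SE 0.09). Of 64 intracellular transducers, 55 were tested, 22 rose and 16 fell (69.1% called, against 55.0% of all genes tested), with a median of 0.09. DPYSL5, a member of the family of semaphorin response mediators, fell from 145 ± 11.5 to 6.32 ± 0.760 CPM (SD, n = 3), a log2 fold change of -4.52 (SE 0.11). Its relatives DPYSL3 and DPYSL2 stood at -1.40 and 0.97. The exchange factors VAV3, which acts after Eph receptors, and TIAM1 rose by 3.49 (SE 0.14) and 3.30 (SE 0.31), and SRGAP2, a partner of Robo receptors, fell by 1.46 (SE 0.07). TIAM1 went from 0.403 ± 0.178 to 3.88 ± 0.315 CPM (SD, n = 3). The transducers EVL and FES and, among the co-receptors and cues, DSCAML1 rose and reached the filter through the antisense-labelled libraries alone. FYN, which rose, and TIAM1 would not have reached it on the vector control libraries alone. The shares called in both lists lean on that. Among 7 tested genes of ephrin, Eph and semaphorin proteolysis, 57.1% were called, near the 55.0% of all genes tested. The shedding enzyme ADAM10 rose (0.56, SE 0.10) and ADAM17 (-0.60, SE 0.10), PCSK5 (-0.56, SE 0.08) and PCSK6 (-0.51, SE 0.07) fell. Every gene named here as rising or falling had an adjusted p under 0.05 by edgeR's quasi-likelihood test.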

How the data were processed

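Per the submitters' processing notes, bcl2fastq, Trimmomatic 0.38, HISAT2 2.1.0, Bowtie2 2.3.4.1, StringTie 1.3.4d and build GRCh37 were used, with roles not given in the sources used here. The deposited values used here are whole-number counts of reads by gene, not normalized by the authors. The other 12 per-library columns were not used. Header numbers (2, 3 and 4) are not the replicate numbers of the labels (1, 2 and 3), so columns were assigned to groups by group name.

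The analysis ran in edgeR 4.0.16 under R 4.3.3 (filterByExpr, TMM scaling, quasi-likelihood test, Benjamini-Hochberg adjustment). DESeq2 1.42.0 was an alternative. CPM used TMM effective library sizes, and the SE is the absolute log2 fold change over the square root of F. The precision is that of 3 libraries per group, and replicate libraries varied more than counting alone gives (a chi-square of 14.3 to 41.2 for each degree of freedom). Lengths are medians over GENCODE transcripts matched by RefSeq accession. Gene order and overlaps of loci came from RefSeq gene positions on GRCh38.p14, whereas the submitters' notes name GRCh37.

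Genes, lists and pairs were chosen with earlier results of these data known. Genes are given with every library where the adjusted p was under 0.05, the groups did not overlap and the mean log2 CPM was at least 1, along with the 6 highest genes that did not pass; the rest were named after their values were seen. Alternatives were other scalings, filters and tests, a header-number block, and fits without 1 library.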

Additional observations from a re-analysis of the deposited data

How the results depend on the processing

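Of the 33 guidance genes that passed, 28 passed with the same direction in each of the alternatives that tested them, out of 12. The exceptions were SEMA4D, the only one at a mean log2 CPM of at least 1, and SLIT3, SEMA3G, EPHA6 and EPHB6. Counts of guidance genes stayed within 11 to 15 higher and 17 to 20 lower, and no count moved by more than 1.5 times. Leaving out 1 library gave 11 to 14 higher and 18 to 20 lower. SEMA3A, which did not pass, ranged from -0.14 to 0.071 without 1 library and changed sign without antisense library 2 (0.01), antisense library 3 (0.03) or control library 3 (0.071). SEMA4C, which did not pass either, ranged from -0.10 to 0.064 and changed sign without antisense library 4 (0.04) or control library 4 (0.064). The median over all genes shifted by between -0.0092 and 0.011 across the alternatives. A replicate block on the header numbers gave 12 guidance genes higher and 17 lower, and 3355 and 3306 over all genes, against 4062 and 3992 without it. Whether these numbers pair the libraries is not labelled. Deviations of same-numbered libraries correlated at 0.05, -0.28 and -0.37, and no library correlated best with its own number. Control library 3 with antisense library 4 gave the highest value, 0.44. Deviations were taken from the mean of 3 libraries, so these correlations depend on one another and cannot settle whether libraries were paired. Without the filter on low counts, 14 guidance genes were higher and 20 lower, and 12 of the 22 genes below the filter could be tested. The 10 with no reads could not. The cause of the lost calls was not tested.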
